A study of Mus musculus with 10 samples.

Results

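Ankrd1, Ankrd2, Fhl1, Fhl2, Csrp3, Xirp1 and Xirp2 encode proteins of the cardiac sarcomere, Z-disc and intercalated disc that are linked to the sensing of stretch. They were chosen by gene symbol, and all 7 were found among the 55401 genes of the deposited tables. Their transcripts were compared between left ventricles (LV) of 5 nAAC mice and 5 sham mice. In nAAC, or neonatal ascending aorta constriction, the aorta is narrowed surgically in newborn pups so that the LV works against raised pressure, and sham pups have the operation without the constriction. Both groups were WT for genotype and were taken at 4 weeks of age, and the study's methods give the strain as C57BL/6. The methods also state that females and males were assigned to groups at random, and the sex of each mouse is not given here. Each mouse gave 1 library of whole LV tissue, so a lower share of cells of a type and less RNA per cell cannot be told apart.

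These proteins sit where force passes through the muscle cell. The ankyrin repeat proteins ANKRD1 and ANKRD2 bind the spring region of titin and also enter the nucleus. The LIM domain proteins FHL1, FHL2 and CSRP3 bind titin or Z-disc proteins, and some of them also bind transcription regulators. The Xin proteins XIRP1 and XIRP2 bind actin at intercalated discs and at sites of filament damage. Ankrd1 is known as an early gene of hypertrophy, and mutations of CSRP3, FHL1 and ANKRD1 have been linked to human cardiomyopathy.

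Levels are FPKM, sequenced fragments scaled to transcript length and to library size, so they can be compared between genes. Differences are on the log2(FPKM + 1) scale and were tested with limma over the 11867 genes whose mean FPKM reached 1. A gene passed the test at an adjusted p below 0.05 and was a differentially expressed gene (DEG) when its absolute log2 fold change (FC) also exceeded 1. The median log2 FC of all tested genes was 0.22, and with median-ratio scaling between libraries it was -0.00077, with each log2 FC lower accordingly.

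Sham replicate 4 stood apart from the other libraries. Relative to the mean of the sham libraries its 2125 tested genes with transcripts under 1500 bases had a median deviation of 0.48 on the log2 scale, and its 252 genes with transcripts over 10000 bases a median of -0.49. In the other sham libraries these medians lay between -0.27 and 0.17 and between 0.060 and 0.22. In addition, nAAC replicates 2 and 3 had the highest FPKM of the atrial light chain Myl7, at 54.0 and 79.8, against at most 11.9 in the other nAAC libraries and 22.4 in the sham libraries. Calls of members and named genes that are lost or gained without these libraries are given with both values. Leaving out libraries also leaves fewer mice in a group, so a call can be lost while its log2 FC hardly changes.

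Ankrd1, Xirp2, Fhl1 and Xirp1 were higher in nAAC LV, Ankrd2 was low but above every sham level, and Csrp3 and Fhl2 did not pass the test. Of the 6 members above the filter, 4 were DEGs and higher, where 5.01% of all tested genes were, and none was lower, where 0.893% were. In those same 4 genes every nAAC value lay above every sham value, which held for 18.9% of all tested genes, and the reverse held for 3.46%. The median log2 FC of the 6 was 1.56.

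**Figure D1:**
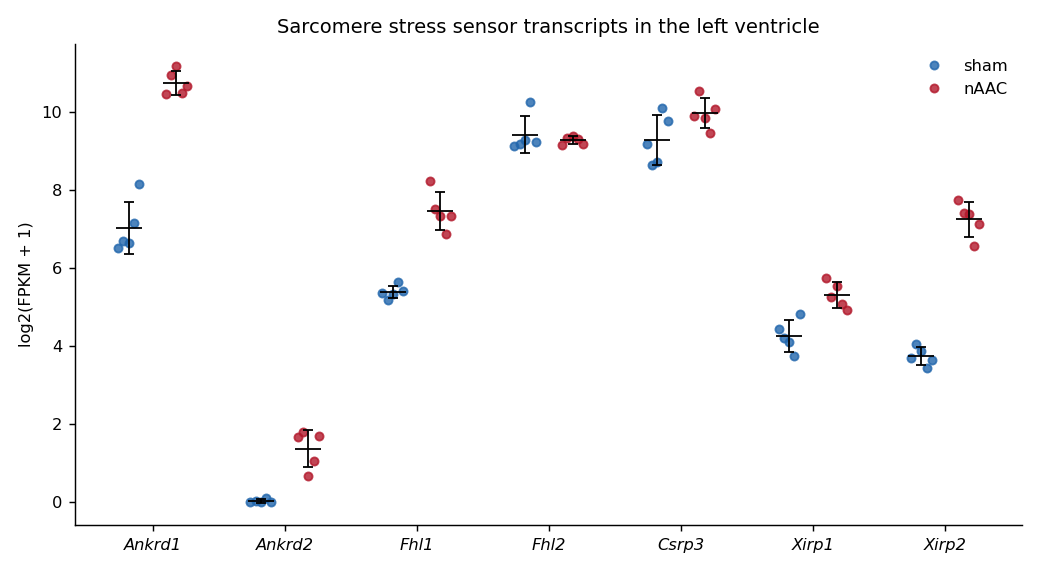
Level of each of the 7 genes in each mouse as log2(FPKM + 1), with sham in blue and nAAC in red; points are mice, and the black bars give the mean and SD of 5 mice. The groups are separate for Ankrd1, Ankrd2, Fhl1, Xirp1 and Xirp2 and overlap for Fhl2 and Csrp3, and 1 sham mouse lies above all others in Fhl2.

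Ankrd1 (ENSMUSG00000024803, chr19:36111961-36120099, minus strand, GRCm38) encodes the cardiac ankyrin repeat protein of the titin N2A region. Its FPKM in nAAC replicates 1 to 5 was 1423, 1982, 2330, 1426 and 1618, and in sham replicates 1 to 5 it was 90.4, 103, 98.8, 141 and 284. The lowest nAAC mouse was thus far above the highest sham mouse, and sham replicate 5 stood above the other 4 sham mice. The means were 1756 ± 393 and 144 ± 81.1 (SD, n = 5 each), a ratio of 12.2. The log2 FC was 3.72 (SE 0.28, 95% interval 3.10 to 4.33, limma adjusted p = 1.28e-06). By log2 FC it ranked 12 among the tested genes.

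The start of Ankrd1 holds 2 matches to the MCAT core CATTCC, the letters bound by TEAD factors, both on the opposite strand and so read as GGAATG. They are shown because, of the 9 promoter windows of 6 members, none but that of Ankrd1 held these letters. Counted from the RefSeq start, the matches begin at -210 and -123, and both stretches fall in the first exon of a longer annotated transcript. At least 1 MCAT core, on either strand, was present in 14.7% of 32851 RefSeq promoter windows of 300 bases, each from 250 bases before to 50 after a start. The stretches are 30 bases of GRCm38.p6 on the minus strand, with the match in capitals.
Ankrd1, chr19:36120037-36120066: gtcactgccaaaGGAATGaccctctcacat
Ankrd1, chr19:36119950-36119979: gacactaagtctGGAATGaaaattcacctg

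Ankrd2 (ENSMUSG00000025172, chr19:42036000-42045110, plus strand) encodes the related ankyrin repeat protein that is found mainly in slow skeletal muscle. Its FPKM in nAAC replicates 1 to 5 was 2.17, 2.46, 0.610, 1.08 and 2.25. Among the sham mice it was 0.0302 in replicate 2 and 0.0846 in replicate 4, and it is listed at 0 in the other 3. All 5 nAAC mice were above all sham mice, at a level far below that of any other member. With a mean FPKM of 0.868 it fell below the filter, so no FC is given. Its log2(FPKM + 1) differed by 1.35, with an exact two-sided permutation p = 0.0079, the smallest that 5 against 5 mice can give. The size of this difference depends on the pseudocount and was 3.77 with 0.1 in place of 1.

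Of the fast skeletal muscle markers, most were at or near 0 in both groups and a few had levels like that of Ankrd2. None of the 10 markers passed the filter, and their summed FPKM was 0.737 to 1.96 in nAAC mice and 1.39 to 2.80 in sham mice. Myh4 and Tnnc2 were listed at 0 in all 10 libraries, and no library exceeded an FPKM of 0.0222 for Myh1 or Myh2. Tnni2 was at 0.0811 to 0.297 in nAAC mice and 0.947 to 1.77 in sham mice, and Tnnt3 was at 0.148 to 1.12 and 0 to 0.126. These are markers of fast muscle, and no list of slow skeletal muscle markers was examined. The part of skeletal muscle RNA in the level of Ankrd2 was not tested.

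Fhl1 (ENSMUSG00000023092, chrX:56731787-56793346, plus strand) encodes a LIM domain protein that binds titin and components of growth signaling. In nAAC replicates 1 to 5 the FPKM of Fhl1 was 298, 182, 161, 117 and 161, and in sham replicates 1 to 5 it was 40.2, 35.5, 39.4, 49.0 and 41.8. The sham mice lay close together, and nAAC replicate 1 stood above the other nAAC mice. The means were 184 ± 68.1 and 41.2 ± 4.94 (SD, n = 5 each), a ratio of 4.47. The log2 FC was 2.07 (SE 0.21, 95% interval 1.62 to 2.52, limma adjusted p = 1.03e-05).

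Fhl2 (ENSMUSG00000008136, chr1:43123074-43196984, minus strand) encodes the LIM domain protein that is most typical of heart muscle and that binds titin and SRF. Its FPKM in nAAC replicates 1 to 5 was 573, 651, 670, 638 and 583, and in sham replicates 1 to 5 it was 562, 580, 619, 1229 and 604. The values of the 2 groups overlapped, and sham replicate 4 lay far above all other mice. The log2 FC was -0.14 (SE 0.21, 95% interval -0.59 to 0.31, limma adjusted p = 0.631), an interval that leaves out a doubling or a halving. Without sham replicate 4 the sham mean fell from 719 ± 286 to 591 ± 25.0 (SD, n = 4), beside 623 ± 42.6 in nAAC mice, and the log2 FC was 0.07 (adjusted p = 0.620). With median-ratio scaling the log2 FC of Fhl2 was -0.42 and did not pass (adjusted p = 0.151). After removal of each library's GC and length trends it was -0.40 and passed (adjusted p = 0.0492). Its locus overlaps Gm8210 on the other strand, which reached an FPKM of at most 6.87, and whether strand was used in counting is not given in the sources used here.

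The promoters of Fhl1 and Fhl2 are shown because both hold a match to the CArG box, the site bound by SRF, while Fhl1 passed the test and Fhl2 did not. A CArG box match was present in 1.63% of the promoter windows and a MEF2 site match in 3.19%. In Fhl1 the match begins at -102 from a RefSeq start that lies inside its locus. The window of a further RefSeq start of Fhl1, also inside its locus, held no CArG box match. In Fhl2 a match begins at -96 from an upstream start and another at -31 from an internal start. The upstream start also has a MEF2 site match at -31, which overlaps a match to the TATA box letters TATAAA on the other strand. Both stretches shown from the upstream start fall in an exon of an annotated Fhl2 transcript. The stretches shown from Fhl1 and from the internal start of Fhl2 hold no annotated exon. Capitals mark the CArG box and MEF2 matches, and each sequence is read along its gene in GRCm38.p6.
Fhl1, plus strand, chrX:56779533-56779682: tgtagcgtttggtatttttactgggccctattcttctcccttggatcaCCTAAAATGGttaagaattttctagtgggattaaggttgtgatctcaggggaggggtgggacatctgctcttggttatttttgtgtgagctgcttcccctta
Fhl2, upstream start, CArG box, minus strand, chr1:43196838-43196867: catttagagaCCAAAAAAGGcttgcaggag
Fhl2, upstream start, MEF2 site, minus strand, chr1:43196773-43196802: tggacatgccTTATTTATAActctgctgac
Fhl2, internal start, CArG box, minus strand, chr1:43163973-43164002: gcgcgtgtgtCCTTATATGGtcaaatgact

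Csrp3 (ENSMUSG00000030470, chr7:48830398-48848033, minus strand) encodes muscle LIM protein, a Z-disc protein that binds alpha-actinin and telethonin. Csrp3 had an FPKM of 963, 1479, 915, 711 and 1077 in nAAC replicates 1 to 5 and 584, 401, 418, 1098 and 873 in sham replicates 1 to 5. The groups overlapped, since sham replicates 4 and 5 lay among the nAAC mice. The means were 1029 ± 284 and 675 ± 303 (SD, n = 5 each), and the log2 FC of 0.68 did not pass the test (SE 0.29, 95% interval 0.06 to 1.31, limma adjusted p = 0.0890). Without sham replicate 4, which was highest in Csrp3, the log2 FC was 0.89 and passed (adjusted p = 0.0165), with a sham mean of 569 ± 219 (SD, n = 4). It also passed relative to the cardiomyocyte markers (0.79, adjusted p = 0.0118) and in TPM (0.85, adjusted p = 0.0312), but not with median-ratio scaling (0.40, adjusted p = 0.323). None of the MCAT core, CArG box or MEF2 letters were in its 2 promoter windows.

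Xirp1 (ENSMUSG00000079243, chr9:120013755-120023598, minus strand) encodes Xin, an actin-binding repeat protein of the intercalated disc. In nAAC replicates 1 to 5 the FPKM of Xirp1 was 53.2, 37.1, 45.9, 33.1 and 29.7, and in sham replicates 1 to 5 it was 20.7, 17.6, 16.1, 12.4 and 27.3. The groups did not overlap, but the lowest nAAC mouse lay only just above the highest sham mouse. The means were 39.8 ± 9.64 and 18.8 ± 5.61 (SD, n = 5 each), giving a log2 FC of 1.05 (SE 0.21, 95% interval 0.61 to 1.501, limma adjusted p = 0.00197). It passed the test in all 22 settings tried but was a DEG in 15 of them, since its FC lies near the threshold. It was 0.92 without sham replicate 4, in which it was lowest, 0.79 with median-ratio scaling and 0.58 after removal of each library's GC and length trends. Its locus overlaps Cx3cr1 on the same strand, which reached an FPKM of at most 2.88.

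Xirp2 (ENSMUSG00000027022, chr2:67173834-67526615, plus strand) encodes the larger Xin relative, which has the longest transcript of the 7 at 11979 bases. Its FPKM in nAAC replicates 1 to 5 was 214, 169, 167, 94.4 and 138, and in sham replicates 1 to 5 it was 12.0, 15.5, 13.8, 9.96 and 11.6. The sham mice were close together, and the lowest nAAC mouse was far above all of them. The means were 156 ± 44.1 and 12.6 ± 2.15 (SD, n = 5 each), a ratio of 12.5. The log2 FC was 3.50 (SE 0.20, 95% interval 3.07 to 3.93, limma adjusted p = 1.31e-07), and it ranked 16 among the tested genes. The 5 genes that overlap its locus reached an FPKM of at most 0.134.

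The stretch before an internal RefSeq start of Xirp2, well inside its locus, is shown because XIRP2 is known as a target of MEF2. It holds a match to the MEF2 site that begins at -74 from the start, in capitals, and no annotated exon. The sequence is the plus strand of GRCm38.p6.
Xirp2, chr2:67445752-67446001: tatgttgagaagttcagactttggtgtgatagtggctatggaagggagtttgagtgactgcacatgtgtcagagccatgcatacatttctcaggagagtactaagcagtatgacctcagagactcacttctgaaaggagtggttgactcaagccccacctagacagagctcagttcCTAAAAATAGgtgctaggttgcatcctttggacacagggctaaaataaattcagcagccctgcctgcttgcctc

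**Figure D2:**
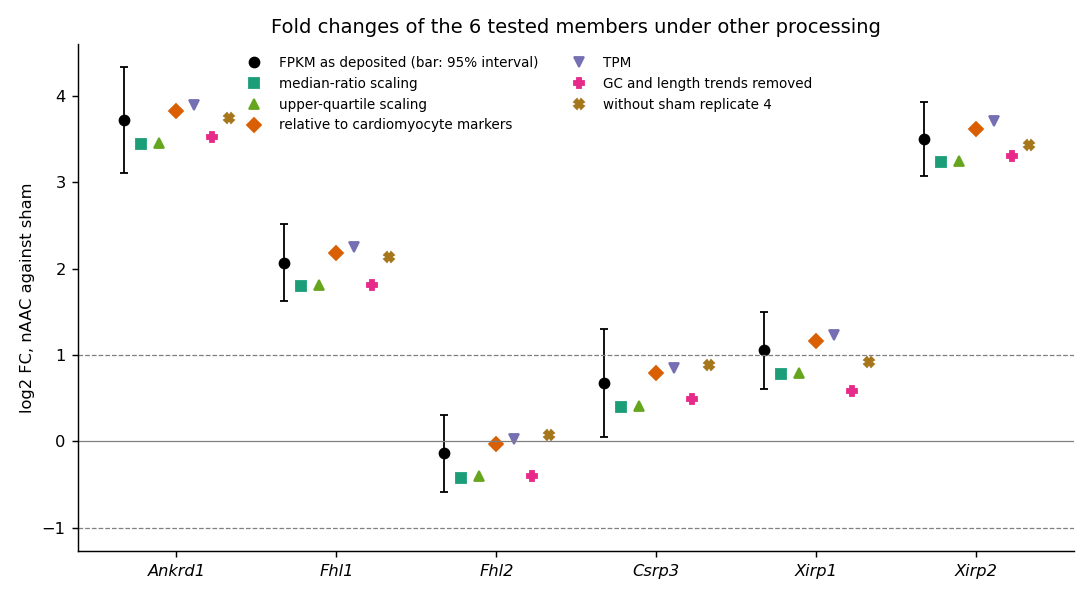
Log2 FC of nAAC against sham for the 6 tested genes, as deposited with its 95% interval (black) and under 6 other ways of processing; dashed lines mark a log2 FC of 1 and -1. Ankrd1, Fhl1 and Xirp2 stayed above 1 in all of them, Xirp1 lay on both sides of 1, Csrp3 lay between 0 and 1, and Fhl2 lay between -0.42 and 0.07.

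Across all 22 settings the log2 FC ranged from 3.43 to 4.00 for Ankrd1, from 3.23 to 3.70 for Xirp2 and from 1.79 to 2.25 for Fhl1, and each was a DEG in all 22. Without the 2 nAAC mice highest in Myl7 they were 3.51, 3.40 and 2.09. The atrial list had a summed FPKM of 3.13 to 228 in nAAC mice and 3.70 to 45.5 in sham mice, and the 3 atrial markers that could be tested did not pass. The 3 genes remained DEGs without those mice, as did Xirp1.

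The order of levels within the set differed between the groups. In sham LV, Fhl2 and Csrp3 were the most abundant members and their values overlapped, with Fhl2 above Csrp3 in 3 of 5 mice. They were followed by Ankrd1, Fhl1, Xirp1, Xirp2 and Ankrd2, each below the one before it in every mouse. The values of Xirp1 and Xirp2 overlapped across the sham mice, although Xirp1 was above Xirp2 in all 5.

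In nAAC LV, Ankrd1 was the most abundant and lay above Csrp3 in all 5 mice, although their values overlapped across mice. Csrp3, Fhl2 and Fhl1 followed without overlap. Xirp2 came next and overlapped with Fhl1, which was above it in 4 of 5 mice, and Xirp1 and Ankrd2 were lowest. By mean FPKM among 55401 genes, Ankrd1 ranked 37 in nAAC LV and 312 in sham LV. Xirp2 ranked 305 and 2947, Fhl1 264 and 914, and Xirp1 1108 and 1986. Csrp3 ranked 51 and 75 and Fhl2 77 and 71, so both were among the most abundant transcripts of the LV in either group.

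The summed FPKM of the 7 genes was 3020 to 4503 in nAAC mice and 1153 to 2540 in sham mice, with the highest sham sum in replicate 4. Ankrd1 made up 46.2% ± 5.20 of the sum in nAAC mice and 9.01% ± 3.83 in sham mice (SD, n = 5 each). The share of Fhl2 was 16.7% ± 2.56 in nAAC mice and 45.2% ± 7.65 in sham mice, and that of Csrp3 was 27.0% ± 4.65 and 40.9% ± 5.87. These shares add to a fixed total, so a rise of Ankrd1 lowers the others.

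**Figure D3:**
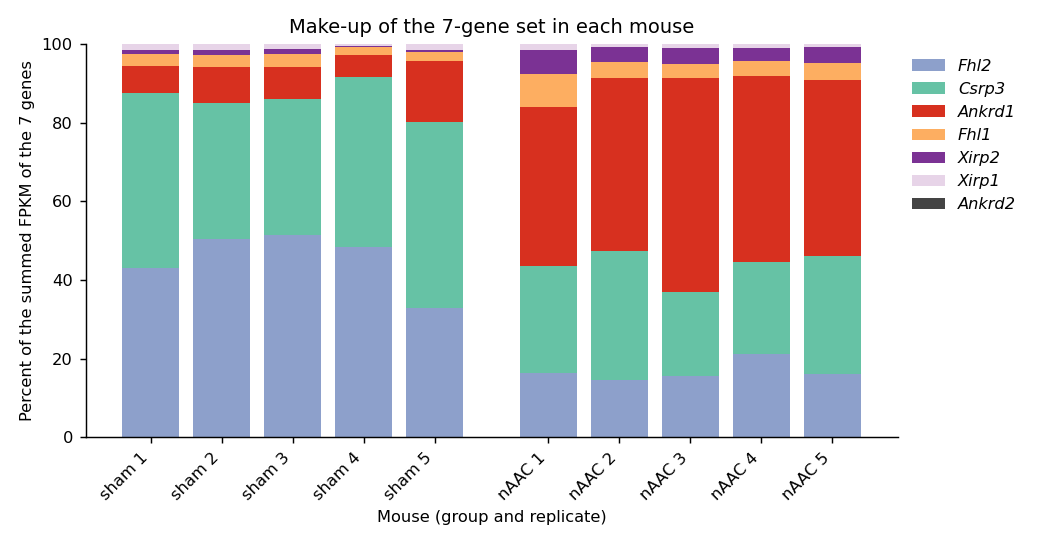
Share of each of the 7 genes in their summed FPKM, in percent, for each sham mouse (left) and nAAC mouse (right). Fhl2 and Csrp3 fill most of every sham bar, and Ankrd1 is the largest part of every nAAC bar, between 40.4% and 54.3%.

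Ratios between members were taken within each library, as differences of log2(FPKM + 1), so a scaling factor of the library has little effect on them where both levels are well above 1. Of the 21 pairs, 17 differed between the groups in an exact two-sided permutation test at an adjusted p below 0.05, adjusted over the 21 pairs. The 6 pairs with Ankrd2 depend on the pseudocount and on the scaling. With a pseudocount of 0.1 the ratio of the ankyrin repeat paralogs Ankrd1 over Ankrd2 differed by -0.0421, against 2.37 with 1. Of the other 15 pairs 13 passed, and without the 2 nAAC mice highest in Myl7 the ratios of Ankrd1 over Fhl1, Fhl1 over Xirp1, Fhl2 over Csrp3 and Fhl2 over Xirp1 did not (adjusted p = 0.0536 to 0.0833 in exact permutation tests).

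The Fhl pair and the Xirp pair differed in their ratio between the groups. The log2 ratio of Fhl1 over Fhl2 was -0.94, -1.83, -2.05, -2.43 and -1.85 in nAAC replicates 1 to 5 and -3.77, -3.99, -3.94, -4.62 and -3.82 in sham replicates 1 to 5. Fhl1 was thus below Fhl2 in all 10 mice, but by much less in nAAC LV (difference 2.21, exact p = 0.0079, adjusted p = 0.0119). The log2 ratio of Xirp1 over Xirp2 was -1.99, -2.16, -1.84, -1.48 and -2.18 in nAAC replicates 1 to 5 and 0.74, 0.17, 0.21, 0.29 and 1.17 in sham replicates 1 to 5. Xirp1 was the more abundant Xin transcript in every sham mouse and Xirp2 in every nAAC mouse (difference -2.45, exact p = 0.0079, adjusted p = 0.0119).

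The order of Ankrd1 and the abundant LIM genes was also exchanged. The log2 ratio of Ankrd1 over Csrp3 was 0.42 to 1.35 in nAAC mice and -2.95 to -1.61 in sham mice (difference 3.04, exact p = 0.0079, adjusted p = 0.0119). That of Ankrd1 over Fhl2 was 1.16 to 1.80 in nAAC mice and -3.12 to -1.08 in sham mice (difference 3.86, exact p = 0.0079, adjusted p = 0.0119). Ankrd1 was below both LIM genes in all sham mice and above both in all nAAC mice.

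Fhl2 over Csrp3 differed by less. It was -1.18 to -0.16 in nAAC mice and -0.53 to 0.57 in sham mice, with overlap (difference -0.82, exact permutation p = 0.0238, adjusted p = 0.0294). Without nAAC replicate 2, or without nAAC replicate 5, it did not pass (adjusted p = 0.0588 in each), nor did it without the 2 nAAC mice highest in Myl7 (difference -0.73, adjusted p = 0.0833). The ratios of Ankrd1 over Xirp2 (difference 0.22, exact permutation p = 0.571) and of Csrp3 over Xirp1 (difference -0.37, exact permutation p = 0.452) did not pass. Ankrd1 over Xirp2 was 2.73 to 3.90 in nAAC mice and 2.66 to 4.51 in sham mice.

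**Figure D4:**
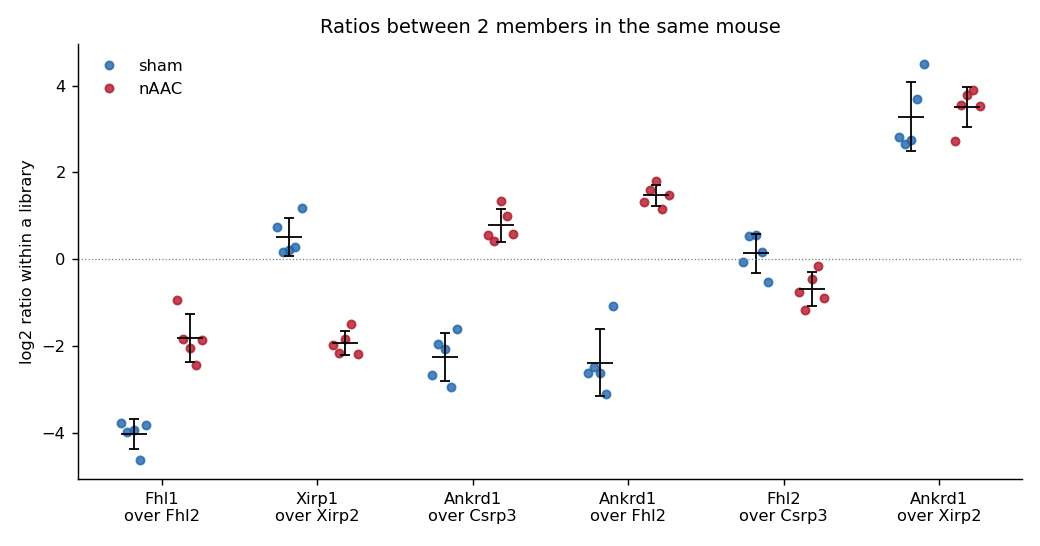
Log2 ratio between 2 of the genes within each library for 6 pairs, with sham in blue and nAAC in red; points are mice, black bars give the mean and SD of 5 mice, and the dotted line marks equal levels. Xirp1 over Xirp2, Ankrd1 over Csrp3 and Ankrd1 over Fhl2 lie on opposite sides of the line in the 2 groups, and Ankrd1 over Xirp2 overlaps.

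No mouse was highest or lowest in all 7 genes within its group. nAAC replicate 1 was highest in Fhl1, Xirp1 and Xirp2 and lowest in Ankrd1 and Fhl2. nAAC replicate 3 was highest in Ankrd1 and Fhl2 and lowest in Ankrd2, and replicate 4 was lowest in Fhl1, Csrp3 and Xirp2. Among the sham mice, replicate 4 was highest in Ankrd2, Fhl1, Fhl2 and Csrp3 and lowest in the Xirp genes, which have the longest transcripts of the 7. Sham replicate 5 was highest in Ankrd1 and Xirp1.

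Among the 6 relatives outside the set, 3 of the 4 that could be tested were DEGs and higher, where 5.01% of all tested genes were, with a median log2 FC of 1.17. With median-ratio scaling 2 were, and after removal of GC and length trends 1 was. Ankrd23, the third muscle ankyrin repeat gene, had an FPKM of 209, 333, 327, 226 and 271 in nAAC replicates 1 to 5 and 26.7, 18.7, 15.1, 40.8 and 61.6 in sham replicates 1 to 5. Sham replicate 5 was the highest sham mouse in both Ankrd23 and Ankrd1. The log2 FC of Ankrd23 was 3.18 (SE 0.32, limma adjusted p = 9.88e-06).

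The Csrp3 relatives Csrp1 and Csrp2, which encode LIM proteins of smooth muscle and fibroblasts, had log2 FCs of 1.03 and 1.32. Csrp1 lay near the threshold and was a DEG in 12 of the 22 settings, not without the 2 nAAC mice highest in Myl7 (0.94). Csrp1 and Csrp2 rose at levels of 32.7 ± 5.99 against 15.7 ± 3.89 and 19.7 ± 5.17 against 7.31 ± 2.33 FPKM (SD, n = 5 each). Many smooth muscle and fibroblast markers passed the test as well. Of 7 smooth muscle and mural markers 5 passed and were higher, 3 of them DEGs, with a summed FPKM of 275 to 405 in nAAC mice and 198 to 294 in sham mice. Of 8 fibroblast markers 6 passed and were higher, 3 of them DEGs, with a summed FPKM of 536 to 958 and 359 to 392. Of all tested genes 27.1% passed and were higher, and 5.01% were DEGs and higher. With median-ratio scaling 3 of the 7 and 4 of the 8 passed and were higher, as did 13.2% of all tested genes. Their part in the levels of Csrp1 and Csrp2 was not tested. Fhl3 had a log2 FC of 0.41 (limma adjusted p = 0.0702), which passed without sham replicate 4 (0.55, adjusted p = 0.00405), and Fhl4 and Fhl5 were below the filter, with Fhl5 listed at 0 in all libraries.

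The proteins that bind the members, or lie beside them at the Z-disc, intermediate filament and intercalated disc, were given by 20 genes. Of the 19 that could be tested, 12 passed and were higher and 1 passed and was lower, where 27.1% and 4.6% of all tested genes did so, and the median log2 FC was 0.67. With median-ratio scaling 9 passed and were higher and 2 passed and were lower, where 13.2% and 12.1% of all tested genes did so. The 5 DEGs were Synpo2l (2.63), Flnc (2.23), Nrap (1.54), Des (1.35) and Pdlim5 (1.08), all higher. Without sham replicate 4, Cryab (1.10) and Pdlim3 (1.03) were also DEGs. Flnc encodes filamin C, a partner of XIRP1, and had an FPKM of 49.0 ± 6.15 against 9.86 ± 2.80 (SD, n = 5 each, limma adjusted p = 9.53e-07). Nrap encodes a disc protein that binds alpha-actinin and vinculin, and Des encodes desmin, the intermediate filament of muscle.

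Of the genes whose products bind a member directly, Ttn (titin) had a log2 FC of 0.58 and did not pass (limma adjusted p = 0.137), with 0.34 without sham replicate 4, and Mypn (myopalladin, a partner of ANKRD1) had 0.59 and passed (adjusted p = 0.0116), but not with median-ratio scaling (0.33, adjusted p = 0.142) or without the 2 nAAC mice highest in Myl7 (0.51, adjusted p = 0.0782). Actn2 (alpha-actinin) rose by 0.67 on the log2 scale (adjusted p = 0.00509). Tcap (telethonin, a partner of CSRP3) had -0.29 and did not pass (adjusted p = 0.579), with 2122 FPKM in sham replicate 4 against a sham mean of 970, and without that mouse it had 0.0640 (adjusted p = 0.869). Nebl (nebulette) was the partner gene that passed and was lower with the FPKM as deposited, by 0.65 on the log2 scale (limma adjusted p = 0.0132). It did not pass without the 2 nAAC mice highest in Myl7 (-0.57, adjusted p = 0.0829). Cdh2 had -0.24 and did not pass (adjusted p = 0.113), but with median-ratio scaling it passed and was lower (-0.51, adjusted p = 0.00503). Ctnnb1 had 0.30 and did not pass (adjusted p = 0.145).

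Of 12 transcription regulators known to act on promoters of the members, 5 passed and were higher and 1 passed and was lower, where 27.1% and 4.6% of all tested genes did so. With median-ratio scaling 3 passed and were higher, namely Srf, Gata4 and Mrtfa. Srf, whose product binds the CArG box, was the DEG, at a log2 FC of 1.002 that lies at the threshold (36.1 ± 5.25 against 17.8 ± 4.51 FPKM, SD, n = 5 each, limma adjusted p = 0.000800). Gata4 (0.72), the SRF coactivator Mrtfa (0.59) and the Hippo pathway coactivators Wwtr1 (0.42) and Yap1 (0.36) also passed. Srf was a DEG in 13 of the 22 settings, and Wwtr1 and Yap1 passed in 8 and 7 of them. Without the 2 nAAC mice highest in Myl7, Srf had 0.96 and passed, while Yap1 had 0.35 and did not pass (limma adjusted p = 0.135). The SE of Yap1 was 0.16 in that setting and 0.12 with all mice. Without sham replicate 4, Wwtr1 had 0.34 and Yap1 0.30, and neither passed (adjusted p = 0.0736 and 0.0530). Mef2a fell by 0.60 on the log2 scale (adjusted p = 0.0160), but did not pass without the 2 nAAC mice highest in Myl7 (-0.53, adjusted p = 0.0887). Tead1 had 0.93 and did not pass (adjusted p = 0.0973), with an FPKM of 1.81 in sham replicate 4 and 14.4 to 15.6 in the other sham mice. Without that mouse its log2 FC was 0.43 and passed (adjusted p = 0.00424). Myocd had -0.01 (adjusted p = 0.978), and without that mouse -0.26 (adjusted p = 0.0451).

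**Figure D5:**
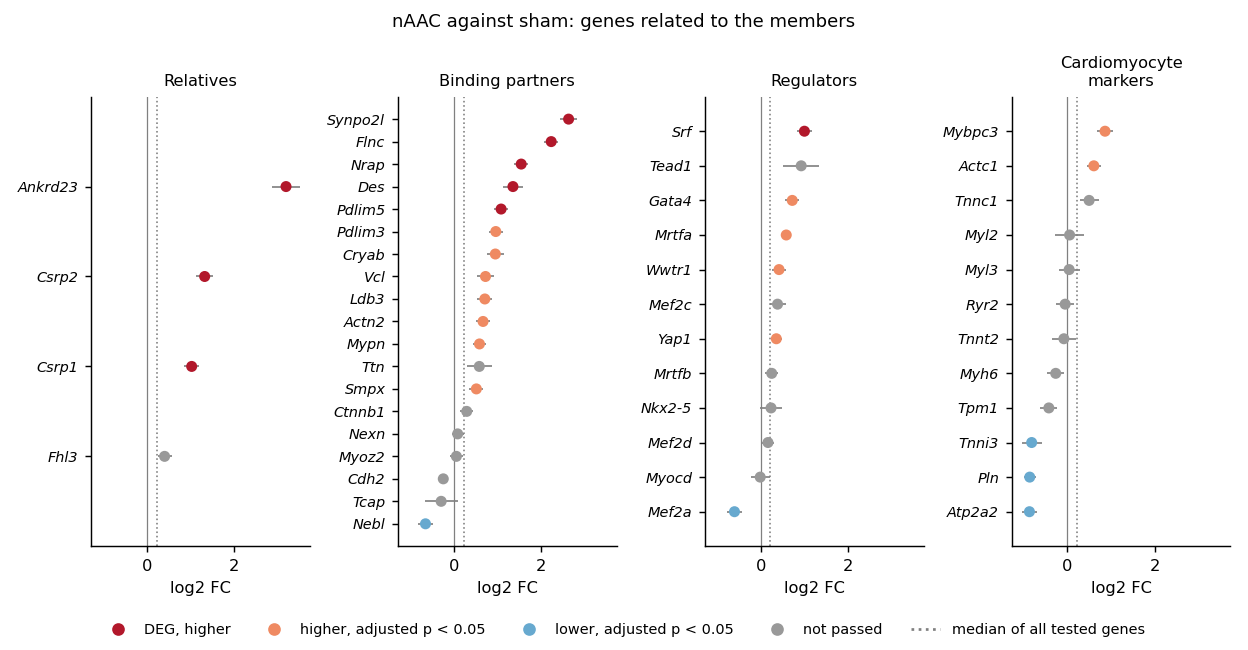
Log2 FC of nAAC against sham with its SE for genes outside the set, in 4 panels of relatives, binding partners, regulators and cardiomyocyte markers; dark red marks DEGs that were higher, orange and blue other genes that passed, and grey those that did not, and the dotted line is the median of all tested genes, 0.22. Most binding partners lie to the right of the line, and the cardiomyocyte markers lie on both sides of 0.

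All 8 other load-responsive genes were DEGs and higher, where 5.01% of all tested genes were, with a median log2 FC of 3.74. This list was chosen with earlier results of these data known. The log2 FCs were 6.07 for Nppa and 5.12 for Nppb, the natriuretic peptides, 6.52 for Acta1, the skeletal actin of the fetal heart, and 2.75 for Myh7, the slow myosin. Ccn2 (3.80), Tnfrsf12a (3.69), Ccn1 (1.72) and Rcan1 (1.63) completed the list. Ankrd1 and Xirp2 lay between Myh7 and Ccn2 in size, while Fhl1 lay between Ccn1 and Myh7.

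The ventricular cardiomyocyte markers depended on the scaling. Of 12 markers 2 passed and were higher and 3 passed and were lower, where 27.1% and 4.6% of all tested genes did so. None of the markers was a DEG, and their median log2 FC was -0.07. With median-ratio scaling 1 passed and was higher and 5 passed and were lower, where 13.2% and 12.1% of all tested genes did so. Of these 5 markers 3 were DEGs, namely Tnni3, Pln and Atp2a2, and the median log2 FC of the 12 was -0.35. All defining markers of these cells, such as Tnnt2 and Myh6, were abundant in both groups, with a summed FPKM of 20680 to 31480 in nAAC mice and 24010 to 42000 in sham mice. Relative to the mean of these markers in each library, the log2 FC was 3.83 for Ankrd1, 3.61 for Xirp2, 2.18 for Fhl1, 1.17 for Xirp1, 0.79 for Csrp3 and -0.03 for Fhl2.

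For each DEG of the set, the 3 genes with the most similar profile were taken by the root mean square difference of log2 values over the 10 libraries, after centering on the sham mean. For Ankrd1 they were Tnfrsf12a (0.34), Ccn5 (0.35) and Aqp8 (0.39), and for Xirp2 they were Serpinb1c (0.37), Ltbp2 (0.41) and Myot (0.43). For Fhl1 they were Timp1 (0.17), Hbegf (0.18) and Tubb2b (0.23), and for Xirp1 they were Itga5 (0.18), Mapk4 (0.18) and Plec (0.19). Aqp8, Serpinb1c and Ltbp2 had mean FPKMs of 0.13, 0.064 and 0.20 in sham LV, against 11.4, 8.66 and 15.9 in nAAC LV. With sham levels this low, their likeness depends on the pseudocount. Their log2 FCs of 3.42, 3.18 and 3.72 reached 5.89, 5.85 and 5.66 among the 22 settings. Of the genes listed, Myot and Plec encode myotilin and plectin, which are also proteins of the Z-disc and its links to filaments. Most of the others, such as Timp1, Ccn5 and Ltbp2, do not encode Z-disc proteins.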

How the data were processed

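LV RNA was extracted with Trizol, and libraries were made with an NEBNext Ultra kit, per the labels. For every mouse the authors deposited 1 table of genes, holding coverage (mean reads per base), FPKM and TPM. The deposited coverage is a signal used here only to estimate depth. The deposited FPKM was normalized by the authors for length and depth, and the deposited TPM was the same value rescaled to a fixed sum. The submitters' processing notes name the build mm10. Aligner and counting tool are not given in the sources used here, nor is the use of strand. Rows sharing a gene ID (12 to 21 per table) were summed. Of 55141 genes shared with GENCODE M21, 99.4% had the same coordinates.

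Groups came from the sample titles. Depth was inferred from the commonest quotient of coverage over FPKM, held by 15.0% to 16.5% of genes with an FPKM above 1. The estimate was 4.86 to 6.82 gigabases in nAAC and 5.06 to 5.25 gigabases in sham libraries. Mitochondrial transcripts took 32.9% to 39.9% and 33.7% to 49.8% of TPM, and 11889 to 12455 and 11182 to 11721 genes had an FPKM of at least 1. No read counts can be had from these values, so the count test that the design named as an option was not used.

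log2(FPKM + 1) was tested with limma 3.58.1 (R 4.3.3, empirical Bayes trend, Benjamini-Hochberg over the 11867 genes whose mean FPKM reached 1). Single values and ratios were compared by exact permutation of 5 against 5. Named are all members, genes of fixed lists that were DEGs or bind a member, the 3 nearest profiles per DEG and genes overlapping a member. The text also names some list genes outside this rule, chosen after their values were seen. The members, lists and tests were chosen with earlier results of these data known. Promoter windows came from RefSeq (GRCm38.p6) for 6 of 7 members. Both strands were searched for the MCAT core CATTCC, the GATA letters GATAA, the TATA box TATAAA, the E box CANNTG, the CArG box and the MEF2 site; matches to GATAA were in 25.4% of windows, to TATAAA in 13.6% and to CANNTG in 72.3%, and these are not described further except where they overlap. The test was checked on simulated data. The alternatives were 3 other scalings, FPKM without mitochondrial genes, TPM, a pseudocount of 0.1, no filter, a replicate block, a covariate for Xist, removal of GC and length trends by loess (99.9% of tested genes) and leaving out each mouse; leaving out the mice highest in Myl7 was added after seeing the data. Figures were drawn with matplotlib 3.10.9 in Python 3.11.15. Whether the mice came from separate litters is not stated, and the p values set the difference between the groups against the variation between these mice.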

Additional observations from a re-analysis of the deposited data

Results flagged for a closer look

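Of 24 sets of 5 values examined, 3 had a highest or lowest mouse whose gap to the next, divided by the range of the group, exceeded 0.71, where chance would give about 5% of them. Fhl2 in sham mice had a gap of 0.878 of the range, with sham replicate 4 highest. The log2 ratio of Fhl1 over Fhl2 in sham mice had a gap of 0.741, with the same mouse lowest. The estimated depth of nAAC libraries had a gap of 0.796, with replicate 1 highest at 6.82 gigabases, and that mouse was also highest in Fhl1, Xirp1 and Xirp2. The part of depth or of the length trend of sham replicate 4 in these values was not tested.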

How the results depend on the processing

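Ankrd1, Fhl1, Xirp1 and Xirp2 kept their direction and passed in all 21 alternatives. Fhl2 changed sign in TPM (0.0336) and without sham replicate 4 (0.0732; range over left-out mice -0.21 to 0.0732), and passed after removal of GC and length trends (-0.40). Csrp3 passed without mitochondrial genes (0.67), relative to cardiomyocyte markers (0.79), in TPM (0.85) and without sham replicate 4 (range over left-out mice 0.52 to 0.89). The 701 DEGs became 1140 in TPM and 1121 with a pseudocount of 0.1. Those higher, 595, became 371 with median-ratio scaling, 377 with upper-quartile scaling, 1034 in TPM, 952 with the pseudocount and 317 without trends. Those lower, 106, became 206, 200 and, with the pseudocount, 169, and 206 without trends, as the median log2 FC of all genes moved from 0.22 to -0.00077, 0.01, 0.38 (TPM), 0.28 and -0.02. Without trends, DEGs among relatives went from 3 to 1 and among partners from 5 to 3. Srf, the DEG among regulators, was lost (0 DEGs) with median-ratio or upper-quartile scaling, without mitochondrial genes, with Xist as a covariate, without trends, without the mice highest in Myl7 and in 3 of the left-out mice (nAAC replicate 3, sham replicates 2 and 3; range 0 to 1), and TPM gave 2. With a pseudocount of 0.1, ratios with Ankrd2 changed sign for Ankrd1 (-0.0421), Fhl1 (1.68) and Xirp2 (0.18). Leaving out each mouse gave 666 to 787 DEGs and 16 to 18 ratios that passed. With the replicate block there were 704 DEGs, no call of a member changed, and the log2 FC of Csrp3 stayed 0.68 (limma adjusted p = 0.121); the numbers do not pair mice (r from -0.32 to 0.19 over 5 pairs, 0 of 5 best with their own number). The block, Xist and trend fits were not run for Ankrd2. Without the mice highest in Myl7, 13 ratios passed. The cause of these changes was not tested. With no read counts, depth sets no stated limit on Ankrd2.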
